A study of Mus musculus with 9 samples.

Results

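The genes described here are 10 transcription factors of sensory neurons: the LIM-homeodomain factors Isl1 and Isl2, the POU-homeodomain factors Pou4f1, Pou4f2 and Pou4f3, the paired-like homeodomain factor Drgx, the zinc finger factor Scrt1, the Runt factors Runx1 and Runx3, and the ETS factor Etv1. They were chosen by gene symbol, as rows of the deposited expression table whose Ensembl identifiers map to these names, and all 10 were found among its 45904 identifiers. Drgx stands in the annotation under its older symbol Prrxl1 and was matched as a synonym. The choice was made with results of these libraries in view, among them the lower Pou4f1 and Isl1 of aged sham ganglia. Which other values were in view is not recorded. The differences of the 10 with age are therefore described below by their size and SE, without p-values, and their intervals are only plotted. Which of the 10 were past the threshold with age is stated as reported and for alternative fits, with nothing read from it.

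RNA was sequenced from whole dorsal root ganglia of the sciatic nerve of C57BL/6 mice, the clusters that hold the cell bodies of the sensory neurons together with satellite glia, Schwann cells, vessels and immune cells. Young sham mice (8 to 10 weeks old) and aged sham mice (20 to 22 months old) had sham surgery, and aged injury mice (also 20 to 22 months old) had a sciatic nerve injury. Tissue was taken 24 h after surgery, each library pooled ganglia of 2 mice, and each of the 3 groups had 3 libraries. No injured young group was among the samples, so the response to injury was measured at the old age alone.

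Isl1 and Pou4f1 act in nearly all newborn sensory neurons, where they end the neurogenic program and switch on genes of the sensory type, and their expression continues in the adult. Runx1, Runx3 and Etv1 then divide the lineage: Runx1 acts in non-peptidergic nociceptors, itch neurons and cold receptors, while Runx3 and Etv1 act in proprioceptors. Drgx is needed for the spinal projections of small-diameter neurons, and the Scratch proteins Scrt1 and Scrt2 are repressors of the Snail family found mainly in neurons.

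The upstream sequences of 4 homeodomain genes are shown, chosen by the sign of their differences with age. The paralogs Isl1 and Isl2 had opposite signs, while Pou4f1 and Pou4f2 had the same sign. Their paralog Pou4f3 had the other sign than Pou4f1, but no RefSeq entry. A link between these sequences and the signs was not tested. Each line gives the 250 bases before the start site in RefSeq, on build GRCm38.p6, from 5′ to 3′ on the strand of the gene. Capitals mark a match to 1 of the 6 motifs searched.
Isl1: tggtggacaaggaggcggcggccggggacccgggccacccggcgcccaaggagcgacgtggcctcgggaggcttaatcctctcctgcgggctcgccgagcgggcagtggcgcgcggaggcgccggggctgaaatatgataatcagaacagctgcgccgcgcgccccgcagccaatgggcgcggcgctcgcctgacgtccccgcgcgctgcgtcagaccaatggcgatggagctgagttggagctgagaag
Isl2: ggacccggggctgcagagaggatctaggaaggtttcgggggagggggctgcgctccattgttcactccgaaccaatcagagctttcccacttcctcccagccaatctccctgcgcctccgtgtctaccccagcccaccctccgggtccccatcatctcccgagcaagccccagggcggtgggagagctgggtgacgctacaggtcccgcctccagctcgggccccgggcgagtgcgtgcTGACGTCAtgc
Pou4f1: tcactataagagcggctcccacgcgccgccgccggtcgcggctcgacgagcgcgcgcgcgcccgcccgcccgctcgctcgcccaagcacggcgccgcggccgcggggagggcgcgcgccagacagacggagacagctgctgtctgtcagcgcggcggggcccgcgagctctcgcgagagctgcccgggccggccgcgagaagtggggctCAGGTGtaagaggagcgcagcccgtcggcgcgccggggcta
Pou4f2: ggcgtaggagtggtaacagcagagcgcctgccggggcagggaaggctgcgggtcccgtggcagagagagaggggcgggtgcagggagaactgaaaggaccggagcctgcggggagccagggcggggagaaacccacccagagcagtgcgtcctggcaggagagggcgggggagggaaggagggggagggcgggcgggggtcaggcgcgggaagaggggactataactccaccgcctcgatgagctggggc
The windows are chr13:116309689-116309938 (minus strand) for Isl1, chr9:55540899-55541148 (plus strand) for Isl2, chr14:104468000-104468249 (minus strand) for Pou4f1 and chr8:78436648-78436897 (minus strand) for Pou4f2. The Isl2 window lies within the annotated span of its gene (chr9:55538672-55546180), and 1 of its bases falls in an annotated exon. The other windows lie at the 5′ end of their genes, that of Isl1 with 1 base in an annotated exon.

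In these windows, G and C made up 71.2% of the bases for Isl1, 66.8% for Isl2, 78% for Pou4f1 and 70.8% for Pou4f2. The motifs, searched on both strands, were TGACGTCA (the ATF and CREB site), TGANTCA (AP-1), AACCACA (Runx), CAGGTG (the E-box of Scratch and Snail proteins), TAATTA (a homeodomain core) and CCGGAA (ETS). The Isl2 window held TGACGTCA, with its first base 11 bases before the start, and 1.55% of the 32851 promoter windows in the table hold that motif. The Pou4f1 window held CAGGTG, 41 bases before the start, as 17.2% of all windows do. The windows of Isl1 and Pou4f2 held none of the 6 motifs in these letters. RefSeq entries were found for 8 of the 10 genes, and Scrt1 and Pou4f3 had none. Among the others, Runx3 held AACCACA 2 times, 127 and 135 bases before the start, and CAGGTG 1 time, Drgx held AACCACA, and Runx1 held CAGGTG at 1 start site and CCGGAA at another. AACCACA stands in 4.4% of all windows, CCGGAA in 12%, TAATTA in 4.84% and TGANTCA in 6.75%. A match is a property of the sequence only, since binding was not measured.

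Levels are given in FPKM, which divide the fragments of a gene by its length and by the size of the library, so they can be compared between genes. Between 20237 and 21100 identifiers were above 0 per library, and 1 read was worth 0.8162 to 1.1819 times as many FPKM as in young sham replicate 1. The steps between FPKM values gave whole reads for each of the 10 genes, up to a common factor per gene: 82 to 180 reads for Pou4f2, 136 to 188 for Runx3, and 1878 to 2952 for Pou4f1, the most deeply read. The counting error of a single value then ranged from 1.84% to 11.04%. The ganglia expressed pan-neuronal genes at a summed 7599 to 9347 FPKM, and Dbh, a defining marker of sympathetic neurons, was at most at 0.119 FPKM. The 9 sympathetic markers summed to 23 to 32.9 FPKM in young sham, 40.8 to 42.6 in aged sham and 37 to 40.2 in aged injury libraries, most of it Th, which sensory neurons with low-threshold C fibres also express and which was at 20.4 to 30.2, 36.2 to 39.1 and 31.8 to 34.4 FPKM. Atf3, a factor that axon injury switches on, was at 278, 192 and 271 FPKM in the aged injury libraries and at 95.6, 27.1 and 27.3 FPKM in the aged sham libraries, so aged sham replicate 1 stood above the other aged sham libraries. The same library held Y-linked RNA at 67.9% of the young mean, the young libraries at 93.7% to 105.2%, and the other aged libraries at 0.0% to 0.1%. Sex and age therefore cannot be told apart in the age comparison, nor sex, age and surgery in aged injury against young sham. For the 10 factors, values without aged sham replicate 1 are given where a call, or a difference by 1.5 times, turned on it. In bulk RNA, fewer cells of a type and less RNA per cell cannot be told apart.

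**Figure D1:**
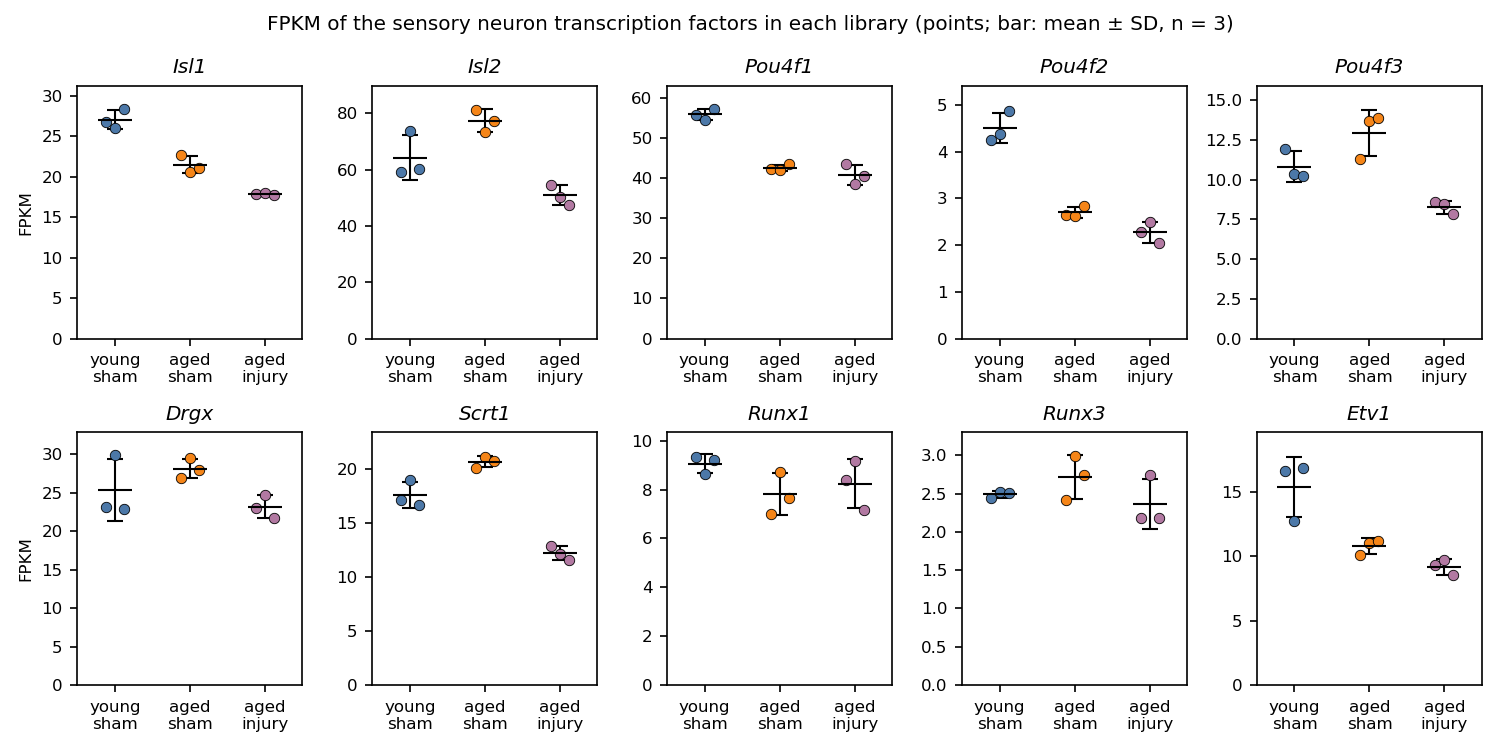
FPKM of each of the 10 factors (vertical axis, from 0) in young sham, aged sham and aged injury libraries, with points for single libraries in the order of their replicate numbers and bars for the mean ± SD (n = 3). Isl1, Pou4f1, Pou4f2 and Etv1 were at their highest in young sham libraries, whereas the mean of Isl2, Pou4f3, Scrt1, Drgx and Runx3 was highest in aged sham libraries. The mean of Runx1 was highest in young sham libraries, which overlapped with both other groups.

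All 10 genes passed the filter on low values, which asked for an average of 0.2 FPKM or more. In young sham ganglia the order of the means was Isl2 (64.3 ± 8.10 FPKM, SD, n = 3), Pou4f1 (55.9 ± 1.38), Isl1 (27.1 ± 1.21), Drgx (25.3 ± 4.04), Scrt1 (17.6 ± 1.19), Etv1 (15.4 ± 2.31), Pou4f3 (10.8 ± 0.947), Runx1 (9.06 ± 0.383), Pou4f2 (4.50 ± 0.322) and Runx3 (2.49 ± 0.0443). The libraries of neighbours in this order did not overlap, except those of Isl1 with Drgx and of Scrt1 with Etv1. In aged sham ganglia Isl2 and Pou4f1 still led, Drgx stood above Isl1, and Pou4f3 stood above Etv1. In that group the libraries of Isl1 and Scrt1 overlapped, as did those of Runx3 and Pou4f2. In aged injury ganglia the libraries of Etv1, Pou4f3 and Runx1 overlapped from one to the next, and Runx3 and Pou4f2 again overlapped at the bottom. Summed over the 10 genes, the level was 226.4 to 241.7 FPKM in young sham, 225.7 to 229.0 in aged sham and 166.9 to 182.8 in aged injury libraries.

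After nerve injury in aged mice, the factors were lower or showed no called difference. Scrt1, Pou4f3, Isl2 and Isl1 fell against aged sham, Scrt1 1.69-fold, Pou4f3 1.55-fold, Isl2 1.52-fold and Isl1 1.20-fold. None of the 10 was called higher. Thus 4 of 10 were called lower, at a limma adjusted p under 0.05 over all genes tested, where 1.65% of the 17601 genes tested were called lower and 2.45% higher. At an unadjusted p under 0.05, 6 of the 10 were lower and 0 higher, beside 1836 lower and 1653 higher of the 17601 genes. Groups did not overlap for 7 of the 10, where 25.4% of all genes tested did not overlap. The median difference of the 10 was -0.25 on the log2(FPKM + 0.1) scale, beside -0.01 over all genes tested. Whether injury values were in view when the 10 were chosen is not recorded, so nothing is read from these counts or this median.

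Scrt1 was at 20.1, 21.2 and 20.8 FPKM in aged sham libraries and at 12.9, 12.2 and 11.6 FPKM in aged injury libraries. Every injured library was below every sham library of either age, since young sham libraries were at 17.2, 18.96 and 16.7 FPKM. Scrt1 fell by 0.76 on the log2 scale (SE 0.07, 95% interval -0.90 to -0.61, limma adjusted p = 0.00366). It was called in all 9 fits that left out 1 library and under all 11 other alternatives. Its paralog Scrt2 was at 16.9, 17.4 and 18.99 FPKM in aged sham libraries and at 19.4, 16.6 and 17.9 FPKM in aged injury libraries, which overlapped (log2 difference 0.02, SE 0.10, limma adjusted p = 0.952). The ratio of Scrt1 to Scrt2 within a library was 1.17 ± 0.0661 (SD, n = 3) in aged sham and 0.682 ± 0.0466 in aged injury, with 1.11 ± 0.0825 in young sham. The ratios of the injured libraries, 0.664, 0.735 and 0.647, lay below all 6 sham libraries, the lowest of which was 1.05.

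Isl2 and Isl1 are close paralogs that bind DNA in complexes with the cofactor Ldb1. Isl2 was at 81.4, 73.4 and 77.4 FPKM in aged sham libraries and at 54.7, 50.4 and 47.6 FPKM in aged injury libraries. It fell by 0.60 on the log2 scale (SE 0.09, 95% interval -0.81 to -0.40, limma adjusted p = 0.0108). The groups were well apart, and the injured libraries were also below the young sham libraries, at 59.1, 73.6 and 60.2 FPKM. Without aged injury replicate 3 the limma adjusted p of Isl2 was 0.0516 (log2 difference -0.56), while the other 8 fits with 1 library left out and the 11 other alternatives kept the call. Isl1 was at 22.7, 20.7 and 21.1 FPKM in aged sham libraries and at 17.9, 18.03 and 17.8 FPKM in aged injury libraries. The injured libraries of Isl1 were nearly equal and all below the sham libraries, and it fell by 0.26 on the log2 scale (SE 0.06, 95% interval -0.39 to -0.13, limma adjusted p = 0.0391).

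The call of Isl1 was held in 2 of the 9 fits that left out 1 library, those without young sham replicate 2 or 3. The limma adjusted p was 0.0691 when young sham replicate 1 was left out. It was 0.0815, 0.0676 and 0.094 for aged sham replicates 1, 2 and 3 in turn, and 0.126, 0.098 and 0.121 for aged injury replicates 1, 2 and 3. The log2 difference stayed between -0.29 and -0.22 in these fits. The ratio of Isl1 to Isl2 was 0.278, 0.281 and 0.273 in aged sham and 0.327, 0.358 and 0.374 in aged injury libraries, so within a library Isl1 made up more relative to Isl2 in every injured library than in any aged sham library. In young sham libraries the ratio was 0.454, 0.353 and 0.472.

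**Figure D2:**
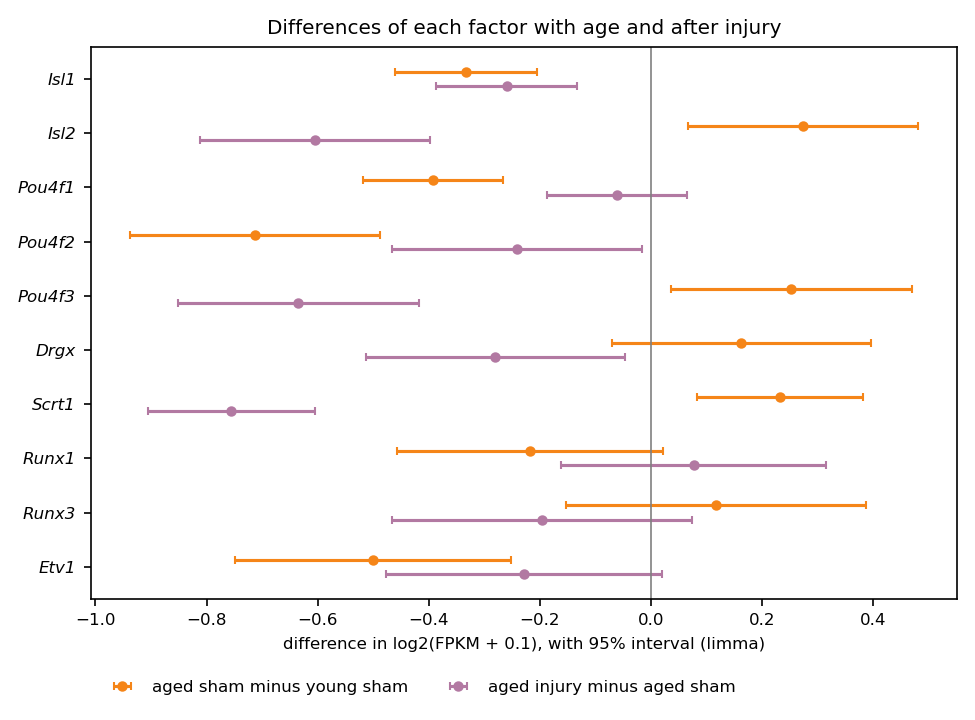
Difference in log2(FPKM + 0.1) of each factor (horizontal axis, with the 95% interval of limma) for aged sham minus young sham and for aged injury minus aged sham. The intervals of Isl2, Pou4f3 and Scrt1 lie above 0 for age and below 0 for injury, and those of Isl1 and Pou4f2 lie below 0 in both, with aged sham libraries shared by the comparisons.

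Among the POU factors, Pou4f3, the paralog best known from auditory hair cells, fell after injury. It was at 11.3, 13.7 and 13.9 FPKM in aged sham libraries and at 8.58, 8.44 and 7.81 FPKM in aged injury libraries. Aged sham replicate 1 was the lowest of its group and still above every injured library. The log2 difference was -0.63 (SE 0.10, 95% interval -0.85 to -0.42, limma adjusted p = 0.0109), and -0.73 without aged sham replicate 1 (limma adjusted p = 0.00627). Without aged injury replicate 3 the limma adjusted p was 0.0516 (log2 difference -0.59), and no other alternative ended the call.

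Pou4f1, the POU factor of nearly all sensory neurons, was at 42.3, 41.9 and 43.4 FPKM in aged sham libraries and at 43.5, 38.5 and 40.4 FPKM in aged injury libraries. The groups overlapped, and the log2 difference was -0.06 (SE 0.06, limma adjusted p = 0.60), with a 95% interval of -0.19 to 0.06. Pou4f2 was at 2.64, 2.63 and 2.84 FPKM in aged sham libraries and at 2.28, 2.504 and 2.05 FPKM in aged injury libraries, which did not overlap (log2 difference -0.24, SE 0.10, limma adjusted p = 0.223). The ratio of Pou4f3 to Pou4f1 within a library was 0.304 ± 0.0326 (SD, n = 3) in aged sham and 0.203 ± 0.0142 in aged injury, and 0.194 ± 0.0183 in young sham. The aged sham libraries, at 0.267 to 0.327, were above all others.

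**Figure D3:**
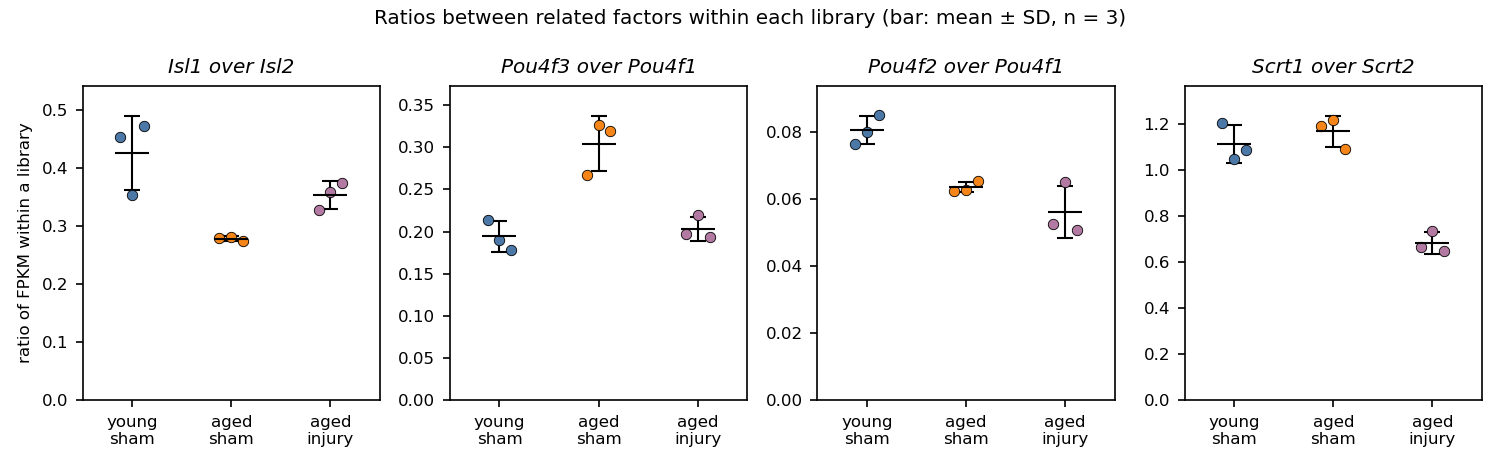
Ratios of FPKM between related factors within each library (vertical axes, from 0), with points for libraries and bars for the mean ± SD (n = 3). Scrt1 over Scrt2 was between 0.647 and 0.735 in injured libraries and at least 1.05 in sham libraries, while Pou4f3 over Pou4f1 was highest in aged sham libraries.

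Drgx, Etv1, Runx1 and Runx3 were not called after injury. Drgx was at 27.0, 29.5 and 27.9 FPKM in aged sham libraries and at 23.0, 24.7 and 21.7 FPKM in aged injury libraries, which did not overlap (log2 difference -0.28, SE 0.10, limma adjusted p = 0.175). Without young sham replicate 2, the fit put Drgx at a limma adjusted p of 0.0496 with the same difference. Etv1 was at 10.1, 11.1 and 11.2 FPKM in aged sham libraries and at 9.30, 9.76 and 8.52 FPKM in aged injury libraries, also without overlap (log2 difference -0.23, SE 0.11, limma adjusted p = 0.294). The Runt factors overlapped between the groups. Runx1 was at 7.02, 8.72 and 7.67 FPKM in aged sham libraries and at 8.40, 9.16 and 7.18 FPKM in aged injury libraries, with a 95% interval of the log2 difference from -0.16 to 0.32 (limma adjusted p = 0.743). The log2 difference of Runx1 was 0.08, but 0.004 without aged sham replicate 1, 0.16 without aged sham replicate 2, -0.001 without aged injury replicate 2 and 0.17 without aged injury replicate 3. Runx3 was at 2.42, 2.99 and 2.75 FPKM in aged sham libraries and at 2.18, 2.74 and 2.18 FPKM in aged injury libraries, with an interval from -0.47 to 0.07 (limma adjusted p = 0.412). The log2 difference of Runx3 was -0.20, but -0.13 without aged sham replicate 2 and -0.30 without aged injury replicate 2. These intervals leave differences of either sign possible for both genes.

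Lymphocytes and myeloid cells also express Runx1 and Runx3. The summed level of 16 T and cytotoxic lymphocyte markers was 3.49 to 5.78 FPKM in young sham, 7.36 to 60.3 in aged sham and 11.7 to 79.7 FPKM in aged injury libraries, and aged sham replicate 2 and aged injury replicate 2 held the highest sums of their groups. In the same libraries Runx3 was at its group's highest, 2.99 and 2.74 FPKM, and Runx1 too, at 8.72 and 9.16 FPKM. These libraries also held the highest sums of their groups for macrophage markers (168.3 and 160.8 FPKM) and for B and plasma cell markers (842.9 and 3117 FPKM). In young sham libraries, where the lymphocyte sum was lowest, Runx1 was at 9.34, 8.63 and 9.23 FPKM and Runx3 at 2.44, 2.53 and 2.51 FPKM. In aged injury the lymphocyte sum was 11.7 FPKM in replicate 1 and 22.4 in replicate 3. Runx1 was at 8.40 and 7.18 FPKM in these 2 libraries and Runx3 at 2.178 and 2.179 FPKM. After injury 0 of the 15 tested T and cytotoxic lymphocyte markers were called, with 0 at an unadjusted p under 0.05 in either direction. The part of immune cells in the levels of the Runt factors was not tested.

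As a description of the age difference, 4 of the 10 factors were lower in aged sham than in young sham ganglia past the threshold used above, namely Isl1, Pou4f1, Pou4f2 and Etv1, and 0 were higher. Over all genes tested 1.49% were called lower and 2.53% higher, and since the choice of the 10 used this comparison, nothing is read from their count. The groups did not overlap for 5 of the 10 (Isl1, Pou4f1, Pou4f2, Scrt1 and Etv1), beside 29.2% of all genes. The median difference of the 10 was -0.05, beside 0.05 over all genes.

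Pou4f1 was at 55.7, 54.6 and 57.3 FPKM in young sham libraries, above all aged libraries, and its log2 difference of aged from young sham was -0.39 (SE 0.06). Pou4f2, a low gene here, was at 4.26, 4.37 and 4.86 FPKM in young sham libraries, with a difference of -0.71 (SE 0.10), which was 1.64-fold. Isl1 was at 26.8, 26.0 and 28.4 FPKM in young sham libraries, with a difference of -0.33 (SE 0.06). In these 3 genes all young libraries were above all aged sham and all aged injury libraries. Etv1 was at 16.6, 12.8 and 16.9 FPKM in young sham libraries, of which replicate 2 was the lowest and closest to the aged libraries (difference -0.50, SE 0.11). Without aged sham replicate 1 the difference of Etv1 was -0.45 and not past the threshold. Etv1 was past it in 1 of the 9 fits that left out 1 library, that without young sham replicate 2. Isl1, Pou4f1 and Pou4f2 were each past it in 5 of 9.

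The difference had the other sign in Isl2 (0.27, SE 0.09), Pou4f3 (0.25, SE 0.10), Scrt1 (0.23, SE 0.07), Drgx (0.16, SE 0.10) and Runx3 (0.12, SE 0.12). Young sham replicate 2 was high for Isl2, Scrt1 and Drgx, which was at 23.1, 30.0 and 22.8 FPKM in young sham libraries. Pou4f3 was at 11.9, 10.4 and 10.2 FPKM there and overlapped with aged sham through replicate 1 of that group. Runx3 was at 2.44, 2.53 and 2.51 FPKM in young sham, within the range of aged sham, and Runx1 was at 9.34, 8.63 and 9.23 FPKM (difference -0.22, SE 0.11). With 1 library left out, the difference stayed between -0.41 and -0.37 for Pou4f1, -0.75 and -0.66 for Pou4f2, -0.37 and -0.30 for Isl1 and -0.63 and -0.43 for Etv1. It ranged from 0.22 to 0.37 for Isl2, 0.20 to 0.35 for Pou4f3 and 0.19 to 0.29 for Scrt1.

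Smaller differences moved more with single libraries. The age difference of Drgx was 0.29 without young sham replicate 2, and 0.10 without young sham replicate 1 or 3. That of Runx3 was 0.05 when aged sham replicate 2 was left out and was 0.20 when replicate 1 was, and that of Runx1 was then -0.15. With a Y-linked covariate in the fit, the age difference was -0.40 (SE 0.11) for Pou4f1, -0.74 (SE 0.20) for Pou4f2, -0.60 (SE 0.22) for Etv1, -0.19 (SE 0.10) for Isl1, -0.45 (SE 0.20) for Runx1, 0.35 (SE 0.19) for Isl2 and 0.14 (SE 0.13) for Scrt1. On the same fit Pou4f3 was at -0.06 (SE 0.15) and Runx3 at -0.15 (SE 0.22), with the other sign than before, and Drgx was at 0.003 (SE 0.20). The standard errors were larger in this fit, and the covariate follows age in all but 1 library.

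Markers of other cells differed between aged and young sham as well, where 1.49% of all genes tested were called lower and 2.53% higher. Such calls depended on single libraries, with 707 genes called with age as reported and 34 to 1571 with 1 library left out. Of 12 satellite glia markers 4 were called lower, and their sum was 1959 to 1989 FPKM in young sham and 1750 to 1898 in aged sham libraries. Of 12 myelinating Schwann cell markers 4 were called lower (2881 to 3320 against 1959 to 2097 FPKM). Of 13 macrophage markers 6 were called higher (61.4 to 69.1 against 104.6 to 168.3 FPKM), as were 7 of 10 neutrophil and bone marrow markers (151.1 to 243.6 against 350.4 to 631.2 FPKM). B and plasma cell markers summed to 58.3 to 63.5 FPKM in young sham, 151.8 to 842.9 in aged sham and 409.6 to 3117 in aged injury libraries, with 1 of 10 called higher with age and, by limma, 0 after injury (3 higher and 0 lower unadjusted). Of 8 spinal cord glia markers 3 were tested, and 2 of them, Gfap and Slc1a2, were called higher with age, the sum of the list being 3.11 to 4.21, 5.17 to 6.68 and 6.79 to 7.35 FPKM in the 3 groups. Skeletal muscle markers summed to 39.5 to 364.6, 12.9 to 244.6 and 3.30 to 35.4 FPKM, with 0 of 7 called by limma in either comparison, also at an unadjusted p under 0.05. The part of these cells in the differences of the factors was not tested. After injury the neutrophil and bone marrow markers were lower again, at 189.9 to 326.8 FPKM, with 3 of 10 called lower, beside 1.65% of all genes tested. Of 12 myelinating Schwann cell markers 0 were called by limma after injury (1 higher and 2 lower unadjusted).

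Over the 3 groups the factors followed different patterns. Isl1, Pou4f1, Pou4f2 and Etv1 were highest in young sham ganglia, with Pearson correlations of log2 levels over the 9 libraries between 0.905 (Pou4f1 and Etv1) and 0.955 (Isl1 and Pou4f2). The mean of Runx1 was also highest there, but Runx1 correlated with these 4 at only 0.385 (Isl1) to 0.639 (Etv1). Isl2, Pou4f3 and Scrt1 were highest in aged sham and lowest in aged injury ganglia, with correlations of 0.951 (Isl2 and Scrt1), 0.929 (Pou4f3 and Scrt1) and 0.817 (Isl2 and Pou4f3). The means of Drgx and Runx3 had the same order of groups, and Drgx correlated at 0.829 with Isl2, 0.765 with Scrt1 and 0.650 with Pou4f3, and Runx3 at 0.475, 0.574 and 0.665. Isl1 and Isl2 correlated at 0.433, and Pou4f1 and Pou4f3 at 0.226. These correlations describe 9 libraries that share their group differences and scaling.

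Aged injury and young sham ganglia differ in age, in surgery and, by their Y-linked RNA, in sex, and share libraries with the comparisons above. Of the 10, 7 were called lower and 0 higher, where 4.89% of all genes tested were called lower and 8.2% higher. This contrast contains the age difference that was in view when the 10 were chosen, so nothing is read from the count. The log2 differences were -0.95 for Pou4f2, -0.73 for Etv1, -0.59 for Isl1, -0.52 for Scrt1, -0.45 for Pou4f1, -0.38 for Pou4f3 and -0.33 for Isl2. With 1 library left out, Isl2 was called in 0 of 9 fits (difference -0.39 to -0.23) and Pou4f3 in 4 of 9 (-0.42 to -0.31). For Drgx (-0.12), Runx1 (-0.14) and Runx3 (-0.08) the libraries of the groups overlapped.

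The pan-neuronal genes gave a scale for neuronal RNA. After injury 0 of 20 pan-neuronal genes were called by limma (1 higher and 1 lower at an unadjusted p under 0.05), with a median log2 difference of -0.07. With age 0 of 20 were called (1 higher and 5 lower unadjusted), with a median of -0.05. Between aged injury and young sham, where 4.89% of all genes tested were called lower, 4 of the 20 pan-neuronal genes were called lower and 0 higher. With each library centred on its mean of these genes, the injury difference was -0.70 for Scrt1, -0.58 for Pou4f3 and -0.55 for Isl2, which limma still called, and -0.21 for Isl1 (limma adjusted p = 0.156), which was then not called. On that scale the age difference was 0.33 for Isl2, 0.31 for Pou4f3, 0.28 for Scrt1, 0.22 for Drgx and 0.17 for Runx3. It was -0.66 for Pou4f2, -0.45 for Etv1, -0.34 for Pou4f1, -0.28 for Isl1 and -0.165 for Runx1. Pou4f2, Pou4f1 and Isl1 were still past the threshold and Etv1 was not, while Isl2 and Scrt1 were then past it.

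**Figure D4:**
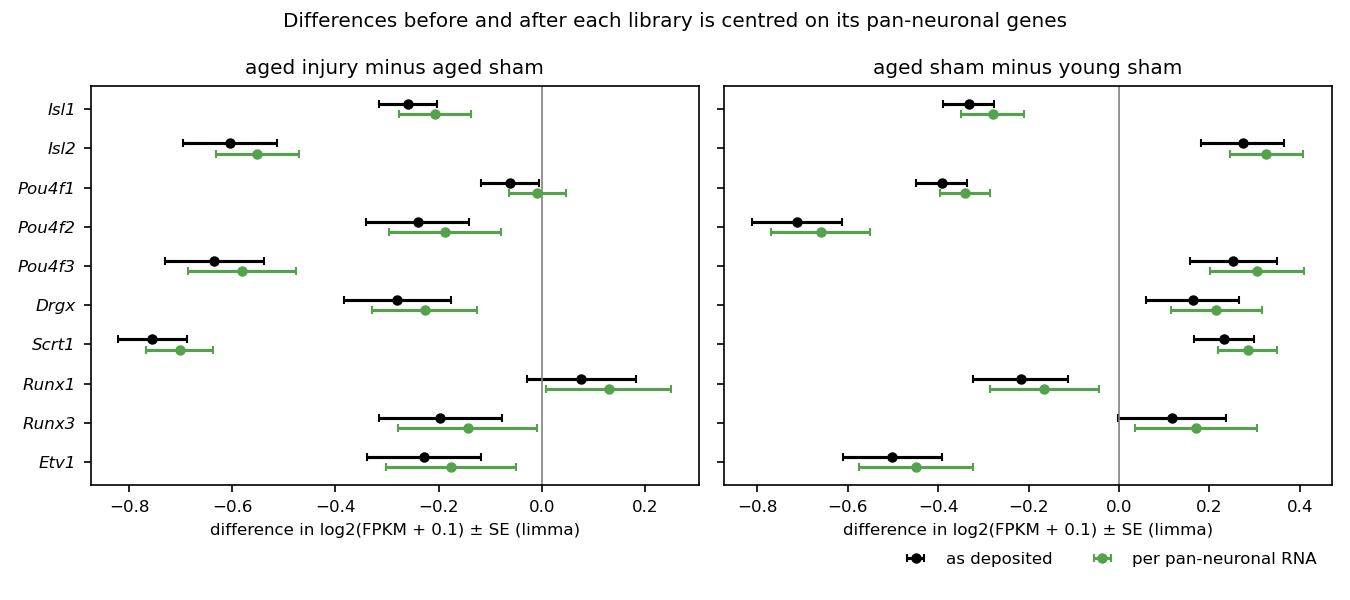
Difference in log2(FPKM + 0.1) ± SE of limma (horizontal axes) for injury (left) and age (right), as deposited and with each library centred on its 20 pan-neuronal genes. By construction, centring shifts all factors by 1 amount in a comparison, and only the position against 0 and the SE can change.

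Other factors of sensory neuron development, a list of 24 of which 19 were tested, moved in both directions after injury, with 2 called higher and 1 lower and a median of 0.01. Prdm12, a regulator of nociceptor formation, was at 57.5, 58.3 and 63.1 FPKM in aged sham libraries and at 48.4, 47.6 and 43.2 FPKM in aged injury libraries. It fell by 0.36 on the log2 scale (SE 0.06, limma adjusted p = 0.0169), and it was called in 6 of the 9 fits that left out 1 library, not in those without aged sham replicate 3 or aged injury replicate 1 or 3. Klf7, a Krüppel-like factor of developing neurons, rose from 23.5 ± 2.03 to 30.6 ± 1.68 FPKM (SD, n = 3, log2 difference 0.38, limma adjusted p = 0.0292). Sox11, an injury-induced factor of axon growth, was at 3.16, 1.34 and 1.04 FPKM in aged sham libraries and at 6.18, 4.24 and 5.97 FPKM in aged injury libraries (log2 difference 1.65, limma adjusted p = 0.0391). Klf7 was called in 4 of 9 such fits, those without young sham replicate 2 or 3, aged sham replicate 1 or aged injury replicate 2, and Sox11 in 2, those without young sham replicate 2 or aged sham replicate 1. With age 0 of the 19 were called by limma (3 higher and 3 lower unadjusted).

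Of 23 further factors of sensory subtypes, 0 were called after injury by limma (1 higher and 2 lower unadjusted), with a median of -0.15. With age 1 was past the threshold, Esrrg, an orphan nuclear receptor, at 7.12, 6.49 and 7.36 FPKM in young sham and 4.83, 5.40 and 5.004 FPKM in aged sham libraries. Esrrg was past it in 5 of the 9 fits with 1 library left out, not in those without young sham replicate 1 or 3 or aged sham replicate 2 or 3. Among 13 tested cofactors that bind the LIM-homeodomain or Runt factors, 1 was called lower after injury and 0 higher. That was Lmo1, a LIM-only protein that competes for the same cofactor as Isl1 and Isl2, at 18.9, 16.3 and 17.7 FPKM in aged sham libraries and at 11.96, 12.2 and 13.02 FPKM in aged injury libraries. Lmo1 fell by 0.50 on the log2 scale (SE 0.07, limma adjusted p = 0.00918) and was called in all 9 fits that left out 1 library. In young sham libraries it was at 13.9, 14.1 and 12.7 FPKM, so Lmo1 too was highest in aged sham ganglia. Ldb1, the shared LIM cofactor, was at 17.2 ± 0.686 FPKM in aged sham libraries and at 15.6 ± 0.403 in aged injury (SD, n = 3, limma adjusted p = 0.337), and Cbfb, the partner of the Runt factors, at 77.3 ± 5.82 and 84.5 ± 6.18 (limma adjusted p = 0.437). With age 1 of the 13 cofactors was past the threshold as higher, Lmo1 (log2 difference 0.38, SE 0.07), and 1 as lower, Cbfb (-0.36, SE 0.08).

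Genes linked to these factors were mostly not called. Of 15 sensory genes linked to Pou4f1 and Isl1, 1 was called higher after injury, the neuropeptide gene Gal, which is induced in injured sensory neurons (33.1 ± 12.7 to 80.1 ± 14.3 FPKM, SD, n = 3, limma adjusted p = 0.0275), and 0 were called lower. Gal reached 47.6 FPKM in aged sham replicate 1. It was called in 5 of the 9 fits that left out 1 library, not in those without aged sham replicate 2 or 3 or aged injury replicate 1 or 3. Of 19 tested nociceptor genes linked to Runx1, 1 was called higher, Gfra1 (35.8 ± 2.70 to 63.7 ± 8.67 FPKM, limma adjusted p = 0.0054), a receptor of the GDNF family, and 1 lower, the itch receptor gene Mrgprx1 (13.4 ± 0.747 to 10.3 ± 0.708 FPKM, limma adjusted p = 0.0244). Gfra1 was called in all 9 fits with 1 library left out, and Mrgprx1 in 4, those without young sham replicate 1, 2 or 3 or aged sham replicate 2. At an unadjusted p under 0.05, 8 of these 19 were lower and 2 higher. Of 12 proprioceptor genes linked to Runx3 and Etv1, 0 were called after injury by limma (0 higher and 1 lower unadjusted), and Pvalb, a marker of proprioceptors, was at 107 ± 18.98 and 86.5 ± 10.5 FPKM (limma adjusted p = 0.324). With age 0 of the Pou4f1 and Isl1 list were called (5 higher and 0 lower unadjusted) and 0 of the Runx1 list (2 higher and 0 lower unadjusted), while the 2 of the proprioceptor list called lower were Etv1 itself and Esrrg.

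For comparison, 12 of 15 injury response genes were called higher after injury, with a median of 1.32, beside 2.45% of all genes tested. The count was 6 when aged sham replicate 2 or 3 or aged injury replicate 1 or 3 was left out. This list too was drawn up with earlier results of these data known, so nothing is read from its count.

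Among 12117 genes averaging 1 FPKM or more, the profile over the 9 libraries most like that of Scrt1 was that of Rtn4rl1 (Pearson r = 0.993), followed by Slc9a3r2 and Stbd1. For Isl2 it was Sppl2b (0.978), then Amacr and Limk1, and for Pou4f3 it was Paqr7 (0.976), then Rab36 and Prrt3. For Isl1 it was Tstd3 (0.989), then Vstm2b and Taco1. For Pou4f1 it was Faim (0.9747), then Nap1l2 and Ppm1e, and for Pou4f2 it was Meis2 (0.980), then Dzip3 and Esrrg (0.972). Meis2 and Esrrg are themselves on the list of subtype factors. For Etv1 it was Hsph1 (0.995), then Strbp and Ralyl, for Drgx Syt7 (0.947), then Dgkz and Eml1, and for Runx1 Zmym2 (0.966), then Sec23ip and Zkscan8. For Runx3 it was Snx9 (0.972), then Lcp1 (0.954), an actin-bundling protein of leukocytes, and St3gal1. These are the highest of 12117 correlations over 9 libraries and describe likeness only.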

How the data were processed

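Gene expression was measured by paired-end mRNA sequencing of 9 libraries in 3 groups of 3. The values deposited by the authors are FPKM, with 45904 identifiers, and all 9 columns were used. Per the submitters' processing notes, the tools were FastQC 0.10.1, Bowtie2 2.2.3, TopHat2 2.0.12, HTSeq 0.6.0, SAMtools 0.1.19, R 3.1.1, limma 3.22.7 and edgeR 3.8.6 and the build mm10, with no role for each. The sources used here give neither the annotation release nor strand handling or scaling factors. Total depth is unknown, and relative depth came from the FPKM step of 1 read (tolerance 0.001 reads).

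The 17601 identifiers averaging 0.2 FPKM or more entered limma 3.58.1 (R 4.3.3), as log2(FPKM + 0.1), which understates changes of low genes, in 1 fit of the 3 groups with a variance trend. Tests were two-sided, with Benjamini-Hochberg adjustment over all 17601 and calls at 0.05; adjusted p-values do not account for the choice of the 10 genes. Scripts were tested on simulated data. Where nothing says that libraries came from separate surgeries, p-values cover only the spread among pools. The 10 genes and the 20 other lists were chosen with earlier results of these data known. Named outside the 10 were genes called within a list, the most abundant of a list, a short preset set, and the 3 genes most like each factor. Correlations, ratios and motif matches are descriptions. Alternatives were 11 other settings and 9 fits that left out 1 library. Promoter sequences are from RefSeq (GRCm38.p6), and gene positions from the GRCm38 annotation.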

Additional observations from a re-analysis of the deposited data

How the results depend on the processing

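After injury, the differences of Scrt1, Isl2 and Pou4f3 kept their direction in all 20 alternatives, and a call was lost only without aged injury replicate 3, for Isl2 and Pou4f3. Isl1 also kept its direction, but was not called with equal medians, with centring on pan-neuronal genes, with those 2 groups alone, with the replicate block or with the Y-linked covariate. Genes called (723 as reported) were 380 with those groups alone and 172 to 737 with 1 library left out, where 1 to 5 of the 10 factors were called. For age (707 genes and 4 factors), the counts were 239 with no filter, 1106 with pan-neuronal centring, 119 genes and 2 factors with those groups alone, 2020 with array weights, and 5 genes and 0 factors with the Y-linked covariate, which nearly coincides with age. With 1 library left out they were 34 to 1571 genes and 0 to 7 factors: 7 without young sham replicate 2, and 0 without young sham replicate 1 or 3 or aged sham replicate 2 or 3, with differences as given above. Of the 7, Isl2, Scrt1 and Drgx, which were not past the threshold as reported, were higher with age and Isl1, Pou4f1, Pou4f2 and Etv1 lower. Isl2 and Scrt1 were also past it as higher with array weights and with pan-neuronal centring. Since the choice of the 10 used the age comparison, nothing is read from these counts and calls. For aged injury against young sham (2304 genes and 7 factors), the counts were 3755 with array weights, 17 genes and 0 factors with the Y-linked covariate, and 957 to 2432 genes and 5 to 6 factors with 1 library left out. A group left with 1 library fewer was assumed to vary like the others. The causes of these changes were not tested, beyond the fewer samples or added terms of each fit.

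Scaling moved the split of calls higher against lower. For injury it was 432 against 291 as deposited, 287 against 294 with equal medians and 521 against 139 with pan-neuronal centring. For age it was 445 against 262, then 281 against 536 with equal medians, 388 against 509 with quantile normalization and 1000 against 106 with centring. For aged injury against young sham it was 1444 against 860, then 1029 against 1670, 1168 against 1241 and 2439 against 280.

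The labels do not say that equal replicate numbers pair libraries. Deviations of same-numbered libraries correlated at 0.24, 0.27 and 0.06 between aged injury and aged sham, where each library correlated best with its own number, and at -0.03, -0.07 and -0.05 between aged and young sham. With the replicate block, 273 genes were called for injury, and 101 genes and 1 factor for age. Counting error is highest for Pou4f2 and Runx3.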
